A study of Mus musculus with 6 samples.

Results

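The 7 genes described here encode proteins of the primary granules of neutrophils and proteins that appear at the same early step of granulocyte and monocyte formation. They are the peroxidase gene Mpo, the serine protease genes Elane, Prtn3 and Ctsg, the membrane protein gene Ms4a3, the cystatin gene Cst7 and the proteoglycan gene Srgn. Members were found by symbol: each of the 7 had 1 probe set with exactly 1 gene symbol in the platform annotation, which gave 7 of the 45037 probe sets that were not controls, and all 7 were among the 22519 bright enough to be tested. The cells were LSK cells, the lineage-negative fraction of mouse bone marrow positive for Sca-1 and c-Kit, which holds blood stem cells and multipotent progenitors and was sorted here by flow cytometry after lineage depletion.

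Ercc1 encodes a subunit of an endonuclease that acts in nucleotide excision repair and in the repair of crosslinks between DNA strands. The 3 Ercc1-deficient samples carried 1 knockout and 1 truncated Ercc1 allele (-/d). The 3 Ercc1-proficient samples were their litter mates, of which those of litters 1 and 2 were +/+ and that of litter 3 was +/d, so its control also carried 1 truncated allele. All mice were F1 hybrids of C57BL/6 and FVB/n, aged 22 weeks in litter 1 and 20 weeks in litters 2 and 3. The disrupted alleles were those of the whole mouse, so cells other than LSK cells carried them too. Each sample filled 1 array with RNA that had been amplified linearly in 2 steps, and pooling of mice is neither stated nor denied in the labels. The p-values therefore refer to samples and not to mice. They and the standard errors rest in part on a variance shared between probe sets, not on each gene's own spread alone. The number of arrays, 3 in each group, limits the precision of all values.

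Primary granules are the first granules that neutrophil precursors make, at the promyelocyte stage, and their proteins are synthesised in progenitors and only stored in mature cells. Myeloperoxidase makes hypochlorous acid from hydrogen peroxide, while neutrophil elastase, proteinase 3 and cathepsin G are serine proteases that are held, by their positive charge, on the chondroitin sulfate chains of serglycin. Transcripts of Mpo, Elane, Prtn3 and Ctsg are therefore markers of granulocyte-monocyte progenitors rather than of mature neutrophils, and low levels are known in the multipotent cells from which those progenitors arise.

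Signals are MAS5 values of 1 probe set on a linear scale that never lies below 30. They compare arrays for 1 gene and are not set against each other between genes. All differences are on the scale log2(signal + 30), deficient minus proficient, from a limma fit with litter as a block, and adjusted p-values are over the 22519 probe sets. The targeted gene served as a check of the labels: Ercc1 had signals of 79.9, 34.5 and 44.9 in the deficient arrays of litters 1, 2 and 3, against 128, 244 and 176 in their proficient litter mates. The position of its probes within the gene is unknown here, so this check is a partial one. Of the sorting and stem cell markers, Cd34 had signals between 461 and 1370.3 in deficient arrays and between 1079.8 and 1448.9 in proficient arrays, and Kit had signals between 92.2 and 125 in deficient arrays and between 123 and 231 in proficient arrays. The Kit signals are those of its brightest probe set, with a log2 difference of -0.53 (limma, adjusted p = 0.383). Another tested Kit probe set had 0.11 (0.876). Mecom, a transcription factor gene of stem cells, had signals between 1155 and 4134 in deficient arrays and between 899 and 3678 in proficient arrays. Ly6a, which encodes Sca-1, was not analysed here.

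All 7 genes had a higher signal in the deficient array of all 3 litters, and 4 of them rose in the test, namely Ms4a3, Ctsg, Prtn3 and Cst7. In the whole table the deficient array was the higher one in all 3 litters for 11.3% of the probe sets tested, and 0.293% rose and 0.493% fell at an adjusted p under 0.05. The median log2 difference of the 7 genes was 1.20, beside -0.03 over all probe sets tested. With no litter term none of the 7 passed, each with an adjusted p of 0.9998 in limma and unadjusted p-values between 0.0567 and 0.398. With any 1 litter left out, none of the 7 passed on the same probe sets (adjusted p between 0.284 and 0.72), whereas 4, 4 and 5 of them passed without litters 1, 2 and 3 when the filter was recomputed on the arrays kept, an alternative added after seeing the data. On the same probe sets no other probe set passed either without litter 1 or without litter 2. The log2 differences of Prtn3 and Cst7 were 0.98 and 1.14 without litter 1, 1.25 and 1.39 without litter 2, and 1.49 and 1.06 without litter 3. For all 7 genes the deficient and proficient arrays overlapped when litters were ignored, while 2.30% of the probe sets tested had no such overlap. In sorted cells, more cells of a type and more RNA per cell cannot be told apart.

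**Figure D1:**
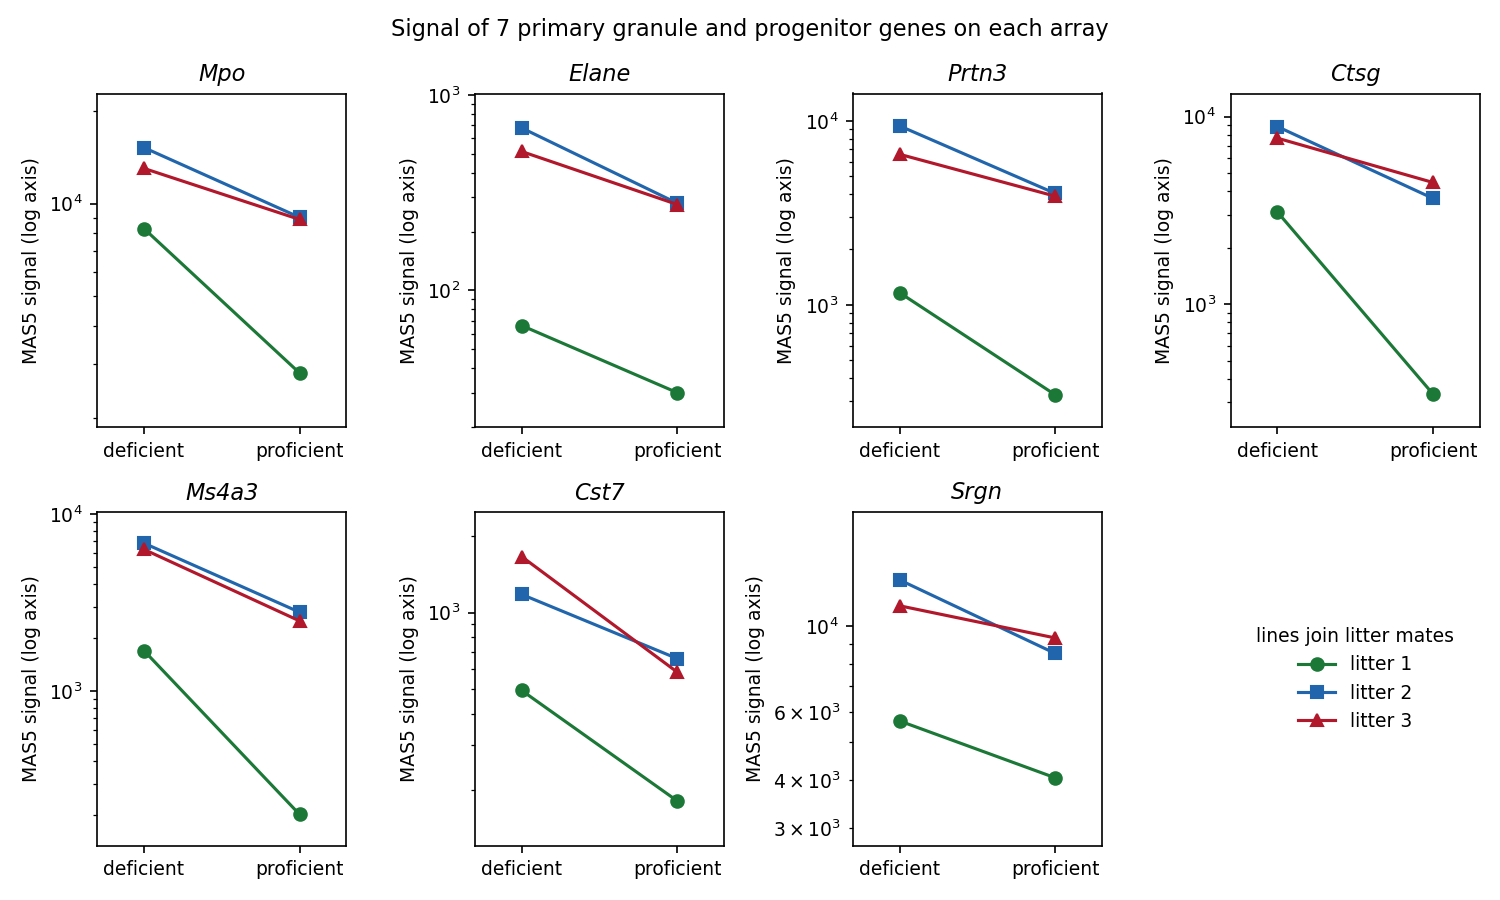
MAS5 signal (log axis) of the 7 genes on each of the 6 arrays, deficient at the left and proficient at the right of each panel, with lines joining litter mates. Every line slopes down to the proficient litter mate, and both arrays of litter 1 lie below those of the same genotype in litters 2 and 3.

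Mpo, the haem peroxidase that gives primary granules their enzymatic stain, had signals of 8297, 15220.4 and 13023 in the deficient arrays of litters 1, 2 and 3, against 2807, 9019.6 and 8878 in proficient arrays. The deficient array was 2.96, 1.69 and 1.47 times its litter mate. The deficient array of litter 1 lay just below the proficient arrays of the other litters, so the groups overlapped by that array alone. Its fitted log2 difference was 0.95 (standard error 0.28), with a 95% interval from 0.37 to 1.54, which did not pass (limma, adjusted p = 0.141).

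Elane, which encodes neutrophil elastase, had signals of 66.1, 677 and 513 in deficient arrays, against 30 (the floor), 279 and 275 in proficient arrays. Its ratios within litters were 2.20, a lower bound because the litter mate was at the floor, 2.43 and 1.87. The log2 difference of 0.90, with a standard error of 0.23, did not pass (limma, adjusted p = 0.0727). Prtn3, which encodes proteinase 3 and is the neighbour of Elane on chromosome 10, had signals of 1164, 9409.5 and 6592 in deficient arrays, against 324, 4036 and 3897 in proficient arrays, so that the deficient array of litter 1 again lay far below every array of litters 2 and 3. Prtn3 rose by a log2 difference of 1.24 (standard error 0.25; limma, adjusted p = 0.0160). In litters 2 and 3 these neighbours had nearly the same difference, 1.20 and 0.83 for Elane and 1.22 and 0.75 for Prtn3, and they parted in litter 1, at 0.68 for Elane, where the floor applies, and 1.76 for Prtn3.

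Ctsg encodes cathepsin G, a chymotrypsin-like protease encoded on chromosome 14 in a cluster with granzyme and mast cell protease genes. Its signals were 3107, 8849 and 7677 in deficient arrays, against 332, 3665 and 4455 in proficient arrays. Only the deficient array of litter 1 lay within the proficient range. The ratio within litters was 9.35, 2.41 and 1.72, so the difference in litter 1 was the largest of the 3. Ctsg rose by 1.72 on the log2 scale (standard error 0.32, limma, adjusted p = 0.0102), which corresponds to 3.29-fold with a 95% interval from 2.07 to 5.24. That interval rests in part on variance shared between probe sets, and it holds neither the ratio of litter 1 nor that of litter 3. The standard deviation of the 3 litter differences of Ctsg was 1.23 on the log2 scale. Without litter 1 the log2 difference of Ctsg was 1.02, and with no variance trend in the fit Ctsg did not pass (adjusted p = 0.0743).

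The windows before the transcription starts of the peroxidase gene and the 3 protease genes are shown because they share a short sequence. They are the 250 bases upstream of the RefSeq start on build GRCm38.p6, 5′ to 3′ along the gene's strand, with capitals marking GAGGAA, the purine-rich core bound by the myeloid ETS factor PU.1.
Mpo, chr11:87793534-87793783, plus strand: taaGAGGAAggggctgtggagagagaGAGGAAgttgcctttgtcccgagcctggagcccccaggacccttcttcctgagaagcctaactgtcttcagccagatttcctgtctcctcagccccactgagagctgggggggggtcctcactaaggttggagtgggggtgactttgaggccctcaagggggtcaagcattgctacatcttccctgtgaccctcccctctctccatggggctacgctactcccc
Elane, chr10:79886062-79886311, plus strand: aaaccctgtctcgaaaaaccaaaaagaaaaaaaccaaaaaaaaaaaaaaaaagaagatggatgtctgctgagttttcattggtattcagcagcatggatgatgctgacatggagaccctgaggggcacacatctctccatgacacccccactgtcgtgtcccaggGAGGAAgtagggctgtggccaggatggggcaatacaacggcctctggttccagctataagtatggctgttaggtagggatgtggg
Prtn3, chr10:79879417-79879666, plus strand: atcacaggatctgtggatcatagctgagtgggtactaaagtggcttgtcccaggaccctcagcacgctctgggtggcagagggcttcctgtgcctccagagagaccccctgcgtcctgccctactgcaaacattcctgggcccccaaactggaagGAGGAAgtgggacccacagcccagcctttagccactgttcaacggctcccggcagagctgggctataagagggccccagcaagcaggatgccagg
Ctsg, chr14:56102575-56102824, minus strand: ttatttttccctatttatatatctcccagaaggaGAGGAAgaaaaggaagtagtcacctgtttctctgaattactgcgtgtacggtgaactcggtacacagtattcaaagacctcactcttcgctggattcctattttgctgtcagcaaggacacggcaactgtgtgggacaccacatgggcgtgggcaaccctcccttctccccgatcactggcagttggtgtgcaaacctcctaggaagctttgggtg

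All 7 genes matched the RefSeq promoter table, with 8 windows because Srgn has 2. On either strand GAGGAA lay in the windows of Mpo, Elane, Prtn3 and Ctsg and in 23.3% of all 32851 windows. It was absent from those of Ms4a3, Cst7 and Srgn. Of the genes with it, Prtn3 and Ctsg passed and Mpo and Elane did not. Of the genes without it, Ms4a3 and Cst7 passed and Srgn did not. The part of this sequence in the differences was not tested. The longer GAGGAAGT, which contains it, lay in 3 of the 7 genes, at 85 bases before the start in Elane, 95 in Prtn3 and 224 in Mpo, and in 2.44% of all windows. AACNG, the core bound by MYB, lay in 6 genes and in 74.2% of windows. TGTGGT, bound by RUNX factors, lay in 3 genes (Cst7, Ctsg and Srgn) and in 14% of windows, and TTNNGNAA, a loose C/EBP pattern, lay in 3 genes (Cst7, Ms4a3 and Srgn) and in 36.8% of windows. The motifs were chosen with the members' differences known, and a match describes the letters only.

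Ms4a3 encodes a membrane protein of the MS4A family whose expression marks granulocyte-monocyte progenitors and their progeny. Over the 3 litters it had the largest fitted difference of the 7 genes, while Ctsg was larger in litter 1 and Cst7 in litter 3. Its signals were 1692, 6842 and 6311 in deficient arrays, against 201, 2786 and 2487 in proficient arrays. In litters 2 and 3 the deficient arrays were above all proficient arrays, and the deficient array of litter 1 was below the proficient arrays of litters 2 and 3. The ratio within litters was 8.44, 2.46 and 2.54. Ms4a3 rose by a log2 difference of 1.84 (standard error 0.28; limma, adjusted p = 0.00168), or 3.58-fold with a 95% interval from 2.39 to 5.37, and it ranked 9 by difference among the 22519 probe sets. Without litter 1 its log2 difference was 1.31. The standard deviation of the 3 litter differences of Ms4a3 was 0.92 on the log2 scale. The 95% interval rests in part on variance shared between probe sets, and it does not hold the ratio of litter 1.

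Cst7 encodes cystatin F, an inhibitor of lysosomal cysteine proteases such as the cathepsin C that activates the granule serine proteases. Its signals were 493, 1181 and 1665 in deficient arrays, against 181, 659 and 582 in proficient arrays. The ratios within litters were 2.73, 1.79 and 2.86, the only case among the 7 in which litter 3 had the largest difference. Cst7 rose by a log2 difference of 1.20 (standard error 0.22; limma, adjusted p = 0.0101).

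Srgn, the gene of the proteoglycan core that packs the granule proteases, had signals of 5685, 13202 and 11311 in deficient arrays, against 4047.5, 8508 and 9332 in proficient arrays. It had the smallest difference of the 7 genes in each of the 3 litters, with ratios of 1.40, 1.55 and 1.21. The log2 difference was 0.47 with a 95% interval from -0.09 to 1.02, and it did not pass (limma, adjusted p = 0.534). The difference of Ms4a3 exceeded that of Srgn by 2.41, 0.66 and 1.06 on the log2 scale in litters 1, 2 and 3. This contrast between genes was not tested.

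**Figure D2:**
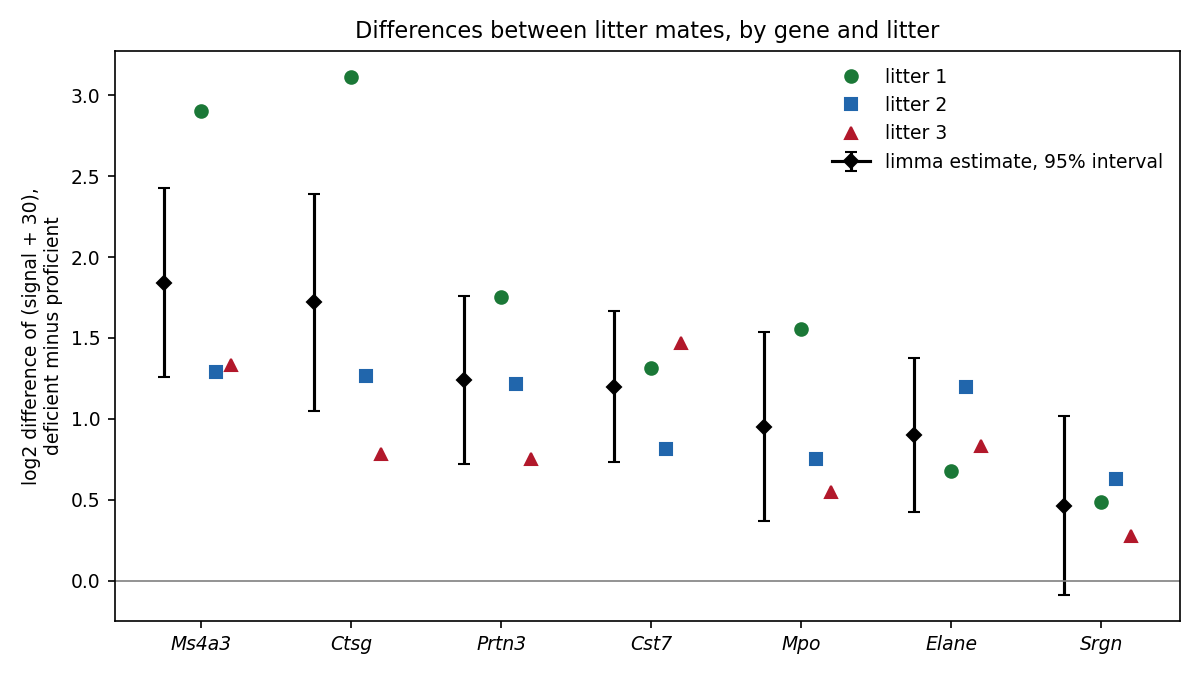
Log2 difference of (signal + 30), deficient minus proficient, for the 7 genes. Coloured points are single litters and black diamonds the limma estimates with 95% intervals; all points lie above 0, and the interval of Srgn alone includes 0.

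For each of the 7 genes the estimated gap between litter 1 and the other litters was larger than that between genotypes. Averaged over both genotypes, all 7 genes were lower in litter 1 than in the mean of litters 2 and 3, by log2 differences from -1.12 (standard error 0.28) for Srgn to -3.11 (standard error 0.26) for Prtn3, and all 7 passed (limma, adjusted p between 1.58e-07 and 0.00485). Over all genes, 13.2% of the probe sets tested were lower in litter 1 by that test. Among proficient arrays, the mean signal of litters 2 and 3 was between 2.20 and 13.1 times that of litter 1, and the proficient array of litter 1 was the lowest of the 6 for all 7 genes. Among deficient arrays the same fold was between 1.70 and 9.0. The fold of Elane among proficient arrays, 9.23, is a lower bound, because litter 1 was at the floor. Litter 1 was also the older litter, so litter and age cannot be told apart. Measures from control probe sets differed in litter 1 as well, as given below, and their part was not tested.

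The size of the genotype difference also varied between litters. The median log2 difference of the 7 genes was 1.55, 1.20 and 0.78 in litters 1, 2 and 3, and litter 1 had the largest difference for 4 genes, Mpo, Prtn3, Ctsg and Ms4a3. Ctsg was 3rd and Ms4a3 5th among the 22519 probe sets in litter 1, while they were 93rd and 80th in litter 2 and 690th and 113th in litter 3. Srgn stood at 2900 in litter 1, 1143 in litter 2 and 4204 in litter 3. With 1 array per genotype in a litter, the variation of the difference between litters was not tested. The mean log2 signal of the 18S ribosomal RNA probe sets was 7.26, 10.4 and 11.8 in the deficient arrays of litters 1, 2 and 3, against 7.21, 9.51 and 11.2 in proficient arrays. In each litter 18S was thus higher in the deficient array, and both arrays of litter 1 were the lowest, as for the members, though its difference there was the smallest of the 3. In litter 1 the deficient array also had a higher 3′ to 5′ log2 difference of Actb, 4.97 against 4.05, and a higher mean log2 signal of the hybridisation spike-ins, 12.8 against 11.6. In litters 2 and 3 the Actb difference was 4.27 and 3.30 in deficient arrays, against 4.43 and 3.70 in proficient arrays, and the spike-ins were at 12.0 and 11.9, against 11.9 and 11.7. The 3′ to 5′ log2 difference of Gapdh was 4.71, 2.43 and 2.30 in deficient arrays of litters 1, 2 and 3. In proficient arrays it was 3.64, 2.99 and 2.73, so both arrays of litter 1 were the highest. The part of these measures in the results was not tested.

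Other proteins of the primary granule were compared from a list of 7 genes, of which 4 had a probe set of their own. Fcnb, which encodes the secreted lectin ficolin B, rose, with signals of 50.8, 147 and 233 in deficient arrays, against 37.0, 41.4 and 43.1 in proficient arrays (log2 difference 1.14, limma, adjusted p = 0.0416). The groups of Fcnb did not overlap, as was the case for 2.30% of all probe sets tested. The lysozyme genes Lyz1 and Lyz2 had log2 differences of 0.60 and 0.72 (adjusted p = 0.360 and 0.275), with 1.35 and 1.66 in litter 3 against at most 0.29 in the other litters. Lyz1 and Lyz2 are near-identical copies, so their probe sets may share signal.

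Of all probe sets tested, 0.293% rose and 0.493% fell in the main fit. Among 13 tested genes of granulocyte-monocyte progenitors other than the members, 5 rose and 0 fell, and the median log2 difference was 0.76. They were Hp, the haemoglobin-binding haptoglobin, at 1.62 (limma, adjusted p = 0.00234), Anxa3, an annexin of granulocytes, at 1.52 (0.00101), the immunoglobulin superfamily gene Igsf6 at 1.24 (0.0126), the Fc receptor gene Fcgr3 at 1.0 (0.0493) and the adaptor gene Tyrobp at 0.96 (0.0464). Hp, Igsf6 and Fcgr3 were at the floor of 30 in the proficient array of litter 1. Anxa3 had nearly equal differences in the litters, 1.64, 1.55 and 1.38. Of the brightest genes that did not pass, Plac8 had a log2 difference of 0.51 (adjusted p = 0.518) and the granule gene Nkg7 0.90 (0.0586).

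The genes that make, process or hold the members' products did not pass the test. Of 9 tested genes of protease maturation and trafficking, 0 passed and the median was -0.06; Ctsc, which encodes the activating cathepsin C, had a log2 difference of 0.10 (limma, adjusted p = 0.898) and Hax1 0.14 (0.843). Of 5 tested inhibitors of serine proteases 0 passed, with Serpinb1a, the intracellular inhibitor of elastase, cathepsin G and proteinase 3, at 0.88 (0.0727) and higher in all 3 litters, and Slpi at 1.0 (0.247). Of 7 tested cysteine proteases and cystatins 0 passed, with Cst3 at 0.18 and Ctss at -0.02. Of 9 genes of haem synthesis and of the chaperones that fold myeloperoxidase 0 passed, with Calr at 0.67 (0.299) and Canx at 0.19. Of 11 tested genes that build the glycosaminoglycan chains of serglycin 0 passed, the brightest being Csgalnact2 at 0.47 and Chsy1 at 0.64. Unadjusted p-values were under 0.05 for 1, 3, 1, 2 and 2 of these lists' genes in that order. Over all 22519 probe sets tested, 2569 were under 0.05 in the same fit.

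**Figure D3:**
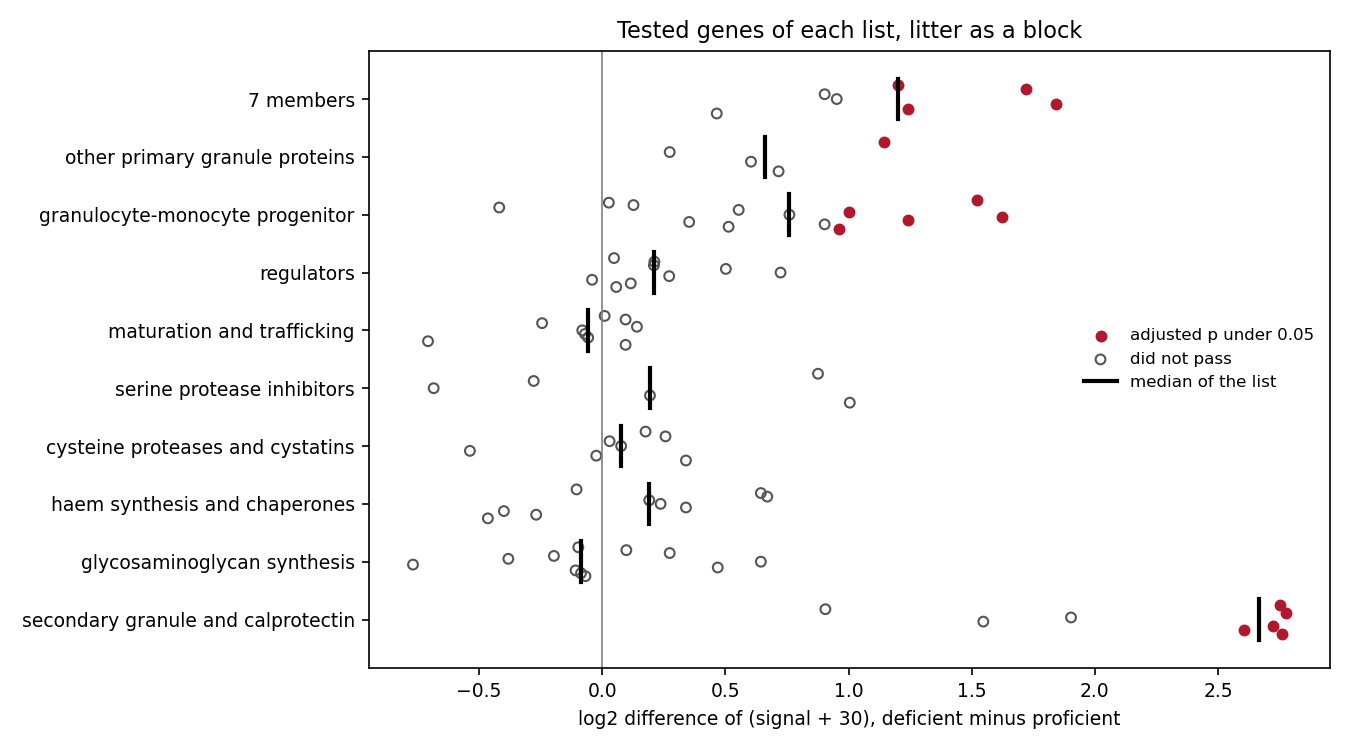
Log2 difference of (signal + 30), deficient minus proficient, of each tested gene by list, with filled points for adjusted p under 0.05 and bars for list medians. The 7 members have a median of 1.20, the lists of maturation, inhibitors, cysteine proteases, haem and glycosaminoglycan synthesis hold no filled point, and the secondary granule list has a median of 2.66.

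Regulators known to act on these promoters also did not pass: of 9 tested, 0 passed, 2 had an unadjusted p under 0.05, and the median log2 difference was 0.21. Over all 22519 probe sets tested, 2569 had an unadjusted p under 0.05. Myb, which was bright on all arrays, had a log2 difference of -0.04 with a standard error of 0.25, and Runx1 0.12 with a standard error of 0.23. Gfi1, a repressor needed for neutrophil formation and chosen here after its values were seen, had signals of 270.1, 227 and 422 in deficient arrays, against 222, 147 and 144 in proficient arrays, with no overlap between the groups (log2 difference 0.72, limma, adjusted p = 0.227). Of all probe sets tested, 2.30% had no such overlap. Spi1, which encodes PU.1, was also chosen after its values were seen. It had a signal of at most 66.0 in deficient and 62.1 in proficient arrays, near the floor of 30. Cebpa, named for the same reason, had a log2 difference of 0.21 (0.774).

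The 2 nearest tested genes on each side of each member in the RefSeq gene table were set beside the members. Of 24 such neighbours that were not members, 16 had a positive log2 difference and 0 passed in either direction. Their log2 differences lay between -0.54 and 0.60, with a median of 0.18. Over all probe sets tested 0.293% rose and 0.493% fell, so 0 calls among 24 cannot show whether the loci moved as a whole. Beside Prtn3 and Elane, Plppr3 had a log2 difference of 0.05 (limma, adjusted p = 0.926) and Med16 0.18 (0.831). Plppr3 was at the floor in both arrays of litter 1. Beside Ctsg, the basophil protease gene Mcpt8 had 0.47 (0.551) and the granzyme gene Gzmb 0.45 (0.479). Beside Mpo, the eosinophil peroxidase gene Epx had 0.19 (0.764), and beside Ms4a3 the related Ms4a2, a subunit of the IgE receptor, had 0.43 (0.570).

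The genes most like the members over the 6 arrays were found from the root mean square difference between centred log2 profiles, among 6294 other genes with a mean signal of at least 100, whose median value was 1.18. The nearest was Rgcc, a regulator of cell cycle kinases, at 0.190, closer to the members' mean than any member (0.354 to 0.612). Rgcc had signals of 383, 1575 and 1052 in deficient arrays, against 75.1, 702 and 524 in proficient arrays. Next came F13a1, the A subunit of coagulation factor XIII, at 0.314, Tyrobp at 0.353, Ssr4 at 0.357, Tmem160 at 0.365, Reep5 at 0.367, Tmsb4x at 0.375, Ssr2 at 0.386, Cox7a2 at 0.389 and Dmkn at 0.398. Ssr4 and Ssr2 encode subunits of the translocon-associated complex through which secreted proteins enter the endoplasmic reticulum. The measure follows the low level in litter 1 as well as the genotype, so these genes' differences depend on how they were chosen. Rgcc, F13a1, Tyrobp and Dmkn passed, with log2 differences of 1.36, 1.08, 0.96 and 1.81 (limma, adjusted p = 0.00577, 0.0236, 0.0464 and 0.000137). The others did not pass, among them Ssr4, Ssr2 and Cox7a2 at 0.62, 0.47 and 0.55.

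**Figure D4:**
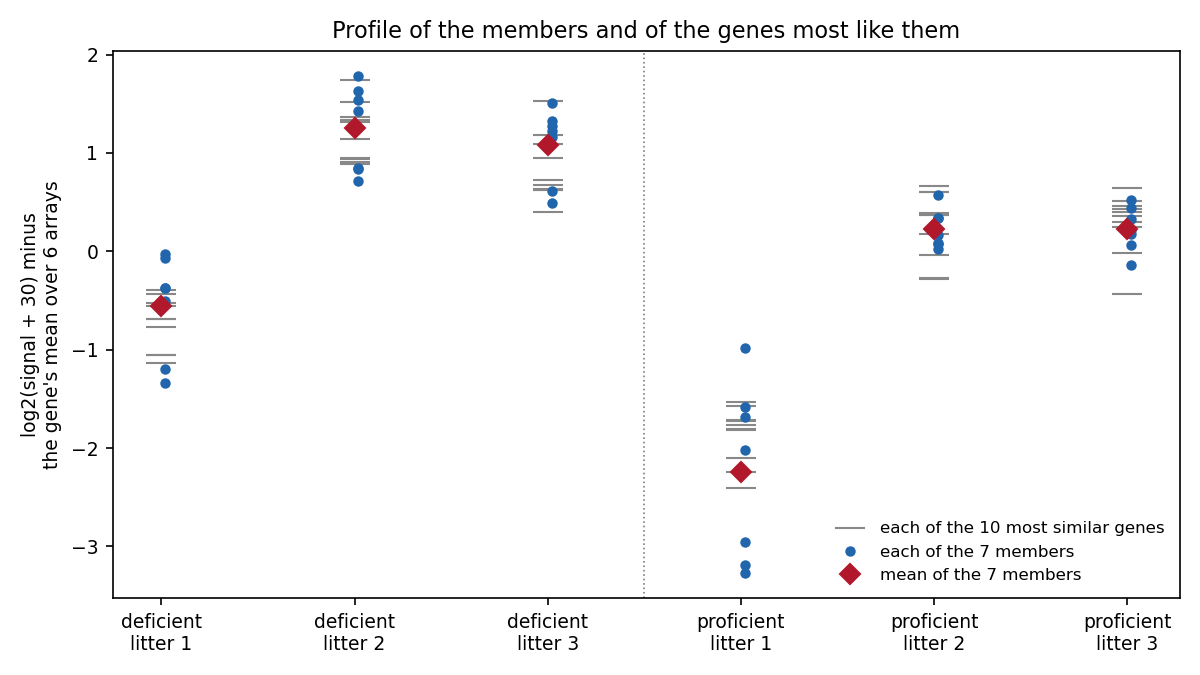
Log2(signal + 30) minus the gene's own mean over 6 arrays, for the 7 members, their mean and the 10 most similar other genes. The members' mean is at -0.56, 1.25 and 1.08 in deficient arrays of litters 1, 2 and 3, and at -2.24, 0.23 and 0.23 in proficient arrays.

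Markers of other cells that the sort could hold were examined beside these values. Of all probe sets tested, 0.293% rose and 0.493% fell in the main fit. Of 8 tested genes of secondary granules and calprotectin, 5 rose (Camp, Ngp, Chil3, S100a8 and S100a9) with a list median of 2.66, and Mmp8 was at the floor on all arrays. Their summed signal was between 5850 and 88496 in deficient arrays and between 527 and 18779 in proficient arrays, and their part in the members' differences was not tested. The secondary granule genes had their largest difference in litter 3, as Cst7 did among the members, and the other members did not: Camp had log2 differences of 2.38, 2.5 and 3.38 and Ngp 1.45, 2.78 and 3.94 in litters 1, 2 and 3, beside 1.31, 0.81 and 1.47 for Cst7 and 3.11, 1.26 and 0.78 for Ctsg. These orders were not tested. The calprotectin genes S100a8 and S100a9 had 3.84, 2.44 and 1.53, and 3.85, 2.48 and 1.95. Ltf and Lcn2, classical secondary granule genes that did not pass, were near the floor except in litter 3. Ltf had signals of 39.5, 48.8 and 2477 in deficient arrays, against 30, 30 and 123 in proficient arrays, and Lcn2 had 30, 91.4 and 3055 in deficient arrays, against 30, 30 and 89.3 in proficient arrays.

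Of 3 tested monocyte and macrophage markers 1 rose, Ccr2, at 1.02 (limma, adjusted p = 0.0310). Adgre1 and Cx3cr1 had 0.12 (0.866) and 0.21 (0.641), and Cd14 and C1qa were at the floor on all arrays. The summed signal covers the 6 genes of the list with a probe set, those at the floor included. It was between 365 and 819 in deficient arrays and between 256 and 439 in proficient arrays. Of 5 basophil and mast cell markers 0 passed and 5 had a positive log2 difference, the brightest being the mast cell protease gene Cpa3 at 0.84 (limma, adjusted p = 0.133), with sums between 1003 and 1309 in deficient arrays and between 452 and 1229 in proficient arrays. Eosinophil, B cell, T and NK cell, erythroid and megakaryocyte markers had 0 calls among 3, 2, 3, 3 and 4 tested genes, and Cd79a, Ncr1 and Hba-a1 were at the floor on all arrays. In contrast, Cd79b, Klf1, Car1, Pf4 and Itga2b were above the floor on all arrays. Cd79b had signals between 99.5 and 230.2 in deficient arrays and between 112 and 222 in proficient arrays. The erythroid genes Klf1 and Car1 had signals between 114 and 513 and between 459 and 1204 in deficient arrays, against 43.9 to 744 and 264 to 2374 in proficient arrays. The platelet chemokine gene Pf4 had signals between 716 and 2054 in deficient arrays and between 193 and 1203 in proficient arrays. The log2 differences of the 2 brightest genes of each list were 0.16 and 0.19 for the eosinophil genes Prg2 and Epx, 0.04 and -0.02 for the B cell genes Cd79b and Ms4a1, and 0.37 and 0.32 for the T cell genes Cd8a and Cd3e. They were -0.26 and -0.14 for Car1 and Klf1, and 0.84 and -0.04 for Pf4 and the platelet integrin gene Itga2b. The differences of Cd8a and Cd3e each rested on 1 array. Cd8a was above the floor only in the deficient array of litter 2, at 98.4. Cd3e was at 90.5 in the deficient array of litter 1 and at most 31.3 elsewhere. Cd3d, the other tested T cell gene, was chosen here after its values were seen. It had signals of 39.3, 50.6 and 41.9 in deficient arrays, against 30, 30 and 35.3 in proficient arrays. Its log2 difference of 0.26 did not pass (limma, adjusted p = 0.554). Of 7 stem cell and LSK markers, 0 rose and 3 fell, Hlf, Procr and Flt3, with log2 differences of -1.19, -1.07 and -1.05 (limma, adjusted p = 0.0164, 0.0296 and 0.0379). Over all probe sets tested 0.293% rose and 0.493% fell. The part of these cell types in the members' differences was not tested.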

How the data were processed

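The authors deposited 1 signal intensity per probe set and array, computed by MAS5 according to notes on processing (per the submitters' processing notes; version not given). How signals were scaled and floored at 30 is not stated. Repeated linear amplification, per the labels' protocols, favours the 3′ ends of transcripts. The 64 control probe sets were left out. Values were transformed as log2(signal + 30), which understates differences of dim genes, and the 22519 of 45037 probe sets whose mean log2 value reached the overall median entered the test with limma 3.58.1 in R 4.3.3 (lmFit, eBayes with a variance trend, Benjamini-Hochberg, threshold 0.05). Terms were genotype and litter, since the labels name arrays of equal number as litter mates. Deviations from the group means correlated within litters 1, 2 and 3 with r = 0.77, 0.67 and 0.46 over probe sets. The fit was tested on simulated data.

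Names came from the platform annotation of 2016, where 34945 had 1 symbol, 932 several and 9160 none. Where a gene had several, the one of highest mean signal was used. Neighbours came from a RefSeq gene table of GRCm38.p6, whose coordinates were used only for that, and promoter sequences from RefSeq on the same build.

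Members, lists and motifs were chosen with earlier results of these data known. Named were all members, from each list the genes that passed and the 2 brightest others, neighbours, and the 10 genes nearest in profile; exceptions are marked, besides Kit, used in the sort, and markers at the floor on all arrays. Alternatives were the fit with no litter term, 2 normalizations, 2 pseudocounts, 2 filters, no variance trend, litters left out and means over probe sets.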

Additional observations from a re-analysis of the deposited data

How the results depend on the processing

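Quantile normalization and median centring kept the direction of all 7 genes. The other alternatives could not change it. The 2 pseudocounts keep the order of litter mates, which was the same in all 3 litters. The rest leave the estimate as it is or average litter differences that were all positive. The calls were less stable. The main fit called 177 probe sets and 4 of the 7 genes. Without the litter block it called 0 of either, with 583 unadjusted p-values under 0.05 over all probe sets, and with no filter on low values it again called 0 of either, where 1825 had an unadjusted p under 0.05. With each litter left out in turn it called between 0 and 5 probe sets on the same probe sets. When the filter was recomputed on the 4 arrays kept, an alternative chosen after seeing the data, it called 281 without litter 1, 325 without litter 2 and 207 without litter 3. Of the 7 genes 0 were called in each case on the unchanged probe sets, and 4, 4 and 5 with the filter recomputed. The 2 litters kept leave 1 residual degree of freedom, so these calls rest on the variance that limma shares between probe sets. Without litter 1 the log2 difference of Ctsg was 1.02 and that of Ms4a3 1.31, and without litter 3 they were 2.19 and 2.09. Median centring called 312 probe sets, 179 higher and 133 lower, where the main fit had 66 higher and 111 lower, and no variance trend called 97. Elane passed with median centring (adjusted p = 0.0147), no pseudocount (0.0393), the stricter filter and means over probe sets (0.0315 in both), and Ctsg did not pass with no variance trend (0.0743). With the filter recomputed, Elane also passed without litter 1 (0.0240) and Mpo without litter 3 (0.00939), and Prtn3 did not pass without litter 1 (0.0571). Over the 3 litters left out on the same probe sets, adjusted p was between 0.284 and 0.72 for Ms4a3 and between 0.29 and 0.72 for Ctsg. The floor of 30 limits values in litter 1: Elane, Hp, Igsf6, Fcgr3, Chil3 and Dmkn were at it in the proficient array, so their differences there depend on the pseudocount.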
